A study of Mus musculus with 69 samples.

Results

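NADPH carries the reducing power that cells spend on glutathione and thioredoxin recycling, on the oxidative burst of phagocytes and on the synthesis of fatty acids, cholesterol and steroids. The pentose phosphate pathway makes it in its oxidative branch, while its non-oxidative branch shuffles sugar phosphates back towards glycolysis without making any, and the cytosolic isocitrate dehydrogenase and malic enzyme make it from tricarboxylic acid intermediates. In the kidney the proximal tubule, rich in mitochondria and in solute and drug handling, is a main site of these reactions. Levels of 7 enzyme mRNAs of this network were followed here, chosen by name: 5 of the pentose phosphate pathway (G6pdx, H6pd, Pgd, Taldo1 and Tkt) and the cytosolic pair Idh1 and Me1, out of 24523 gene symbols with counts.

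Whole perfused kidneys came from female NZB/W F1 mice, a hybrid strain that develops lupus-like glomerulonephritis by itself, with no transgene. The 30 young mice were 12 weeks old and untreated. The 27 nephritic mice were 30 to 45 weeks old, untreated, and harvested 2 to 3 weeks after proteinuria passed 300 mg/dl. The 8 remission mice were 36 to 50 weeks old when treated, and received cyclophosphamide (50 mg/kg) and 6 doses each of CTLA4Ig (200 ug) and anti-CD40L (250 ug) over 2 weeks at the onset of nephritis, and were harvested 8 weeks later with proteinuria of at most 30 mg/dl. Young and nephritic kidneys were taken at 6 zeitgeber times (ZT0 is lights on, ZT12 lights off), with 4 to 7 young and 3 to 7 nephritic mice at each, and remission kidneys at ZT0 and ZT12, 4 mice each. Nephritic mice were older than young mice, so age and nephritis cannot be told apart, nor can remission and its treatment. All 8 remission mice are taken here to share a later sequencing run with 4 libraries titled as repeats of earlier mice, which would connect it to the first. The young and nephritic mice form 2 RNASeq sets by the study's sample list, told here by the prefixes of the mouse names, with 6 young and 5 nephritic mice of ZT0 and ZT12 in set 1 and 24 young and 22 nephritic mice in set 2. Each library is 1 mouse.

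Total counts were 25257530 to 35744843 in young, 26596500 to 48075977 in nephritic and 13311278 to 21849912 in remission libraries. The kidney label was borne out by the markers: 10 proximal tubule markers together held 14535 to 21285 CPM (read counts scaled to library size) in young mice, 3178 to 17042 in nephritic mice and 10467 to 15719 in remission mice. The 14 leukocyte markers held 84.1 to 204 CPM in young, 208 to 4323 in nephritic and 264 to 1429 in remission mice. In 9 libraries (8 young and 1 nephritic) 8 adrenal markers passed 50 CPM in sum, up to 1904 CPM, against at most 13.5 CPM in the other 56, and most of these young mice were of ZT12 and ZT16. The 7 adipocyte markers ranged from 18.8 to 518 CPM in young and 20.8 to 552 CPM in nephritic mice. The remission mouse s9, labelled ZT12, had 27.7 CPM of the clock gene Arntl, against 3.23 to 4.95 CPM in the other 3 remission mice of that time and 22.5 to 29.9 CPM at ZT0. Calls on the 7 enzymes that changed without the adrenal libraries or s9 are given beside the results. In whole kidney RNA, fewer cells of a type and less RNA per cell cannot be told apart.

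In GRCm38 (GENCODE), G6pdx lies at chrX:74409483-74429194, Pgd at chr4:149149991-149166771, H6pd at chr4:149979475-150009023, Idh1 at chr1:65158616-65186500 and Me1 at chr9:86581371-86695953, all on the minus strand. Taldo1 lies at chr7:141392199-141402968 and Tkt at chr14:30548359-30574720, both on the plus strand. Per kilobase of exon, Idh1 was the most abundant of the 7 mRNAs in young mice, with 226 ± 45.7 CPM per kilobase (SD, n = 30), followed by Taldo1 with 113 ± 15.4 and Me1 with 64.1 ± 7.28. Tkt (30.4 ± 4.26), H6pd (26.2 ± 3.33), Pgd (17.04 ± 1.54) and G6pdx (12.0 ± 1.20) came after them on the same scale. The length is that of all annotated exons joined, 7355 bases for Tkt and 6447 for Pgd, against 2171 for Taldo1. Exons of minor transcripts count in it and lower the value, so the order of the genes depends on the annotation. Each step of this order held in all 30 young mice except Tkt above H6pd, which held in 23. In nephritic mice H6pd (35.3 ± 8.87 CPM per kilobase, n = 27) stood above Tkt (23.4 ± 4.11) in 23 of 27 mice. In remission mice Idh1 and Taldo1 were close, at 133 ± 26.2 and 121 ± 9.26 CPM per kilobase (n = 8), with Idh1 above in 6 of 8. G6pdx, the entry enzyme of the oxidative branch, was the lowest of the 7 in each group by this measure. Its 3080 exon bases share 418 with Ikbkg on the other strand, and Ikbkg itself had 39.3 to 56.3 CPM, and the counting strand is not given in the sources used here. If reads were counted without strand, those of the shared bases cannot be told apart between the 2 genes.

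**Figure D1:**
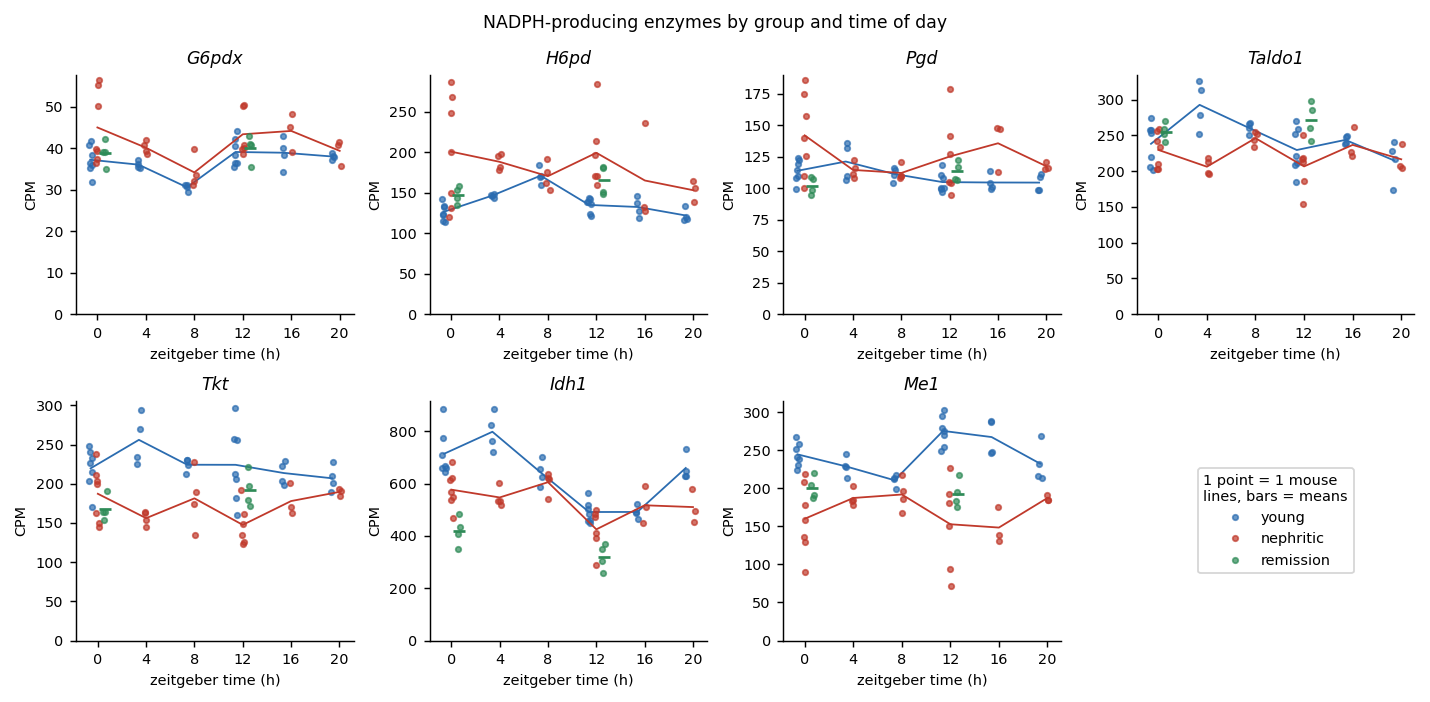
CPM of each enzyme mRNA (vertical axis, from 0) by zeitgeber time in hours (horizontal axis) for 30 young (blue), 27 nephritic (red) and 8 remission mice (green), each point 1 mouse, with lines or bars at the means. Me1 of nephritic mice lies under that of young mice at most times, H6pd of nephritic mice reaches 287 CPM at ZT0, and Idh1 of young mice is highest at ZT4 and lowest at ZT12.

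The first comparison asked whether the level of each enzyme mRNA, over all times of day, differs between nephritic and young kidneys. The 3 enzymes of the oxidative branch were higher in nephritic mice, and the 2 of the non-oxidative branch and both cytosolic enzymes outside the pathway were lower. All 7 passed the test (edgeR's quasi-likelihood test with time point and RNASeq set as covariates, adjusted p of at most 0.05 over 17521 genes), and so did 62.1% of all genes tested: 28.1% were higher, as were 3 of the 7, and 33.9% were lower, as were 4 of the 7. The changes were modest, from -0.59 to 0.40 on the log2 scale, beside a median of -0.03 over all genes. The groups' ranges overlapped for all 7 enzymes when the 6 times were pooled, and stood apart for 0.873% of all genes.

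H6pd, the glucose-6-phosphate dehydrogenase of the endoplasmic reticulum, where it supplies NADPH to the steroid-activating enzyme Hsd11b1, had 114 to 184 CPM in young mice (median 137) and 120 to 287 CPM in nephritic mice (median 175). Of 27 nephritic mice, 11 lay above every young mouse and 4 below the young median. H6pd rose by 0.40 ± 0.07 (log2, SE; edgeR adjusted p = 2.8e-06). G6pdx, the cytosolic rate-limiting enzyme, had 29.5 to 44.1 CPM in young (median 36.9) and 31.2 to 56.4 CPM in nephritic mice (median 39.9). It rose by 0.15 ± 0.04 (edgeR adjusted p = 0.0011), with 7 nephritic mice above all young ones. Pgd, which makes the second NADPH of the branch, had 97.2 to 135 CPM in young (median 109) and 94.6 to 186 CPM in nephritic mice (median 116). Pgd rose by 0.17 ± 0.06 (edgeR adjusted p = 0.0081), with 8 of 27 nephritic mice above all young mice, but among the 24 young and 22 nephritic mice of set 2 alone the difference was 0.10 and did not pass (adjusted p = 0.096).

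Of the non-oxidative branch, Tkt, the transketolase, had 160 to 297 CPM in young (median 225) and 123 to 238 CPM in nephritic mice (median 164). It fell by 0.41 ± 0.06 on the log2 scale (edgeR adjusted p = 3.4e-08), with 25 of 27 nephritic mice below the young median. Taldo1, the transaldolase, fell by 0.16 ± 0.05 (edgeR adjusted p = 0.0033). Its ranges overlapped, 174 to 327 CPM in young (median 250) and 155 to 262 CPM in nephritic mice (median 219). Of the enzymes outside the pathway, Me1, the cytosolic malic enzyme, had 199 to 304 CPM in young (median 246) and 72.0 to 227 CPM in nephritic mice (median 181). Me1 fell by 0.59 ± 0.08 (edgeR adjusted p = 2.8e-09), and 22 of 27 nephritic mice lay below every young mouse and all 27 below the young median. Idh1, the cytosolic and peroxisomal isocitrate dehydrogenase, had 450 to 885 CPM in young (median 637) and 289 to 681 CPM in nephritic mice (median 535), and fell by 0.28 ± 0.05 (edgeR adjusted p = 8.0e-06).

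**Figure D2:**
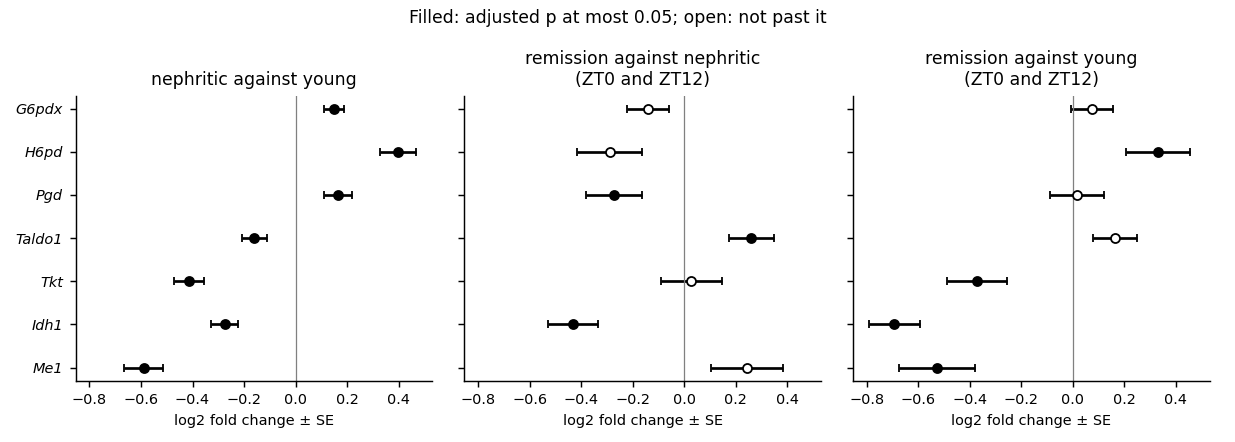
Log2 fold change (horizontal axis) with its standard error for each enzyme in 3 comparisons, nephritic against young mice over all times and remission mice against each of these at ZT0 and ZT12, with filled points for adjusted p of at most 0.05. G6pdx, H6pd and Pgd lie to the right and the other 4 to the left of 0 in the first panel, and Idh1 has moved further left, to -0.69, in remission against young mice.

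As a direct contrast of the pathway with Idh1 and Me1, the mean log2 CPM of the 5 pentose phosphate enzymes minus the mean of Idh1 and Me1 was taken in each mouse, with no test. It was -1.65 ± 0.14 (SD) in young and -1.19 ± 0.36 in nephritic mice, and 19 of 27 nephritic mice lay above every young mouse. The difference of the group means was 0.46. The contrast was not adjusted for set. Among the mice of set 2 alone it was -1.61 ± 0.12 in 24 young and -1.30 ± 0.24 in 22 nephritic mice. Idh1 (-0.28) and Me1 (-0.59) both fell, while the 5 pathway enzymes changed in both directions, from -0.41 for Tkt to 0.40 for H6pd. The contrast therefore does not show a rise of the pathway as a whole. Within the pathway, the mean of G6pdx, H6pd and Pgd minus the mean of Taldo1 and Tkt, a split made after their directions had been seen, went from -1.50 ± 0.16 in young to -0.995 ± 0.35 in nephritic mice, with 14 of 27 nephritic mice above all young ones. The nephritic mice were spread more widely in both contrasts. In the first contrast the widest nephritic spread was at ZT12 (SD 0.53), where it ran from -1.43 to -0.12 in 6 nephritic mice and from -1.72 to -1.41 in 7 young mice. The nephritic mice of set 1 were the highest there, at -0.12 and -0.50, and those of set 2 ran from -1.43 to -1.08. In the second the nephritic SD was 0.51 at ZT0 and 0.301 at ZT12.

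**Figure D3:**
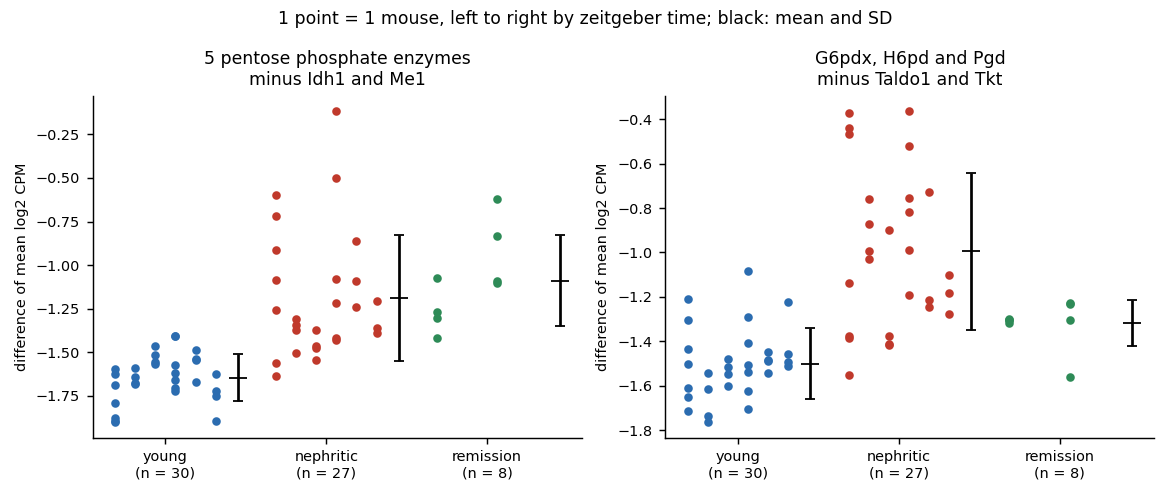
Difference of mean log2 CPM in each mouse (vertical axis) between the 5 pentose phosphate enzymes and Idh1 with Me1 (left) and between the oxidative and the non-oxidative enzymes (right), by group, with mice placed by zeitgeber time within a group and the mean and SD in black. Nephritic mice reach -0.12 on the left, where the highest young mouse is at -1.41, and remission mice are close to nephritic mice on the left and to young mice on the right.

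Letters of known regulatory elements were looked for on both strands of the RefSeq promoter windows (GRCm38.p6, 250 bases before to 50 after a transcript start), of which the 7 genes have 10. The core of the antioxidant response element, TGACNNNGC, which the oxidative stress factor NRF2 binds, stood in 12.39% of 32851 windows and in windows of G6pdx, Pgd and Me1. The D-box TTATGTAA, which clock output factors of the Dbp family bind, stood in 0.94% of windows and in that of H6pd, and the clock E-box CACGTG in 7.15% of windows and in none of the 10. The 4 stretches below run from 100 bases before to 20 bases after the start and are shown because they set genes of opposite change side by side, with the element in capitals. These are RefSeq's starts, and all 4 lie inside the genes as GENCODE bounds them. That of H6pd is an alternative start well downstream of the 5′ end, and that of Me1 lies nearest to the 5′ end of its gene. A match is a description of letters, and binding was not measured.
G6pdx (chrX:74428861-74428980, minus strand): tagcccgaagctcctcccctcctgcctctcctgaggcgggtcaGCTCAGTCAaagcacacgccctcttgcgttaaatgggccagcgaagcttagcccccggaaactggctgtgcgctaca
Me1 (chr9:86695895-86696014, minus strand): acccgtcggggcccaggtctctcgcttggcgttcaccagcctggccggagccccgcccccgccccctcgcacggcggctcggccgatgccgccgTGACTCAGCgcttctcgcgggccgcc
Pgd (chr4:149166063-149166182, minus strand): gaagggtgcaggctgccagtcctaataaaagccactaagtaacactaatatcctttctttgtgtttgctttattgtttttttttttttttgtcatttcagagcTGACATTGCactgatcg
H6pd (chr4:150003217-150003336, minus strand): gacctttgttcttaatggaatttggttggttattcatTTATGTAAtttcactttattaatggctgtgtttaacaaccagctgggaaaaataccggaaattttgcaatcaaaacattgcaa
The element of G6pdx reads in the reverse direction and begins 57 bases before the start. That of Me1 begins 6 bases before it. That of Pgd begins after the start, at base 4 of the transcript, and so does not lie before it. G6pdx and Pgd were higher and Me1 lower in nephritic mice, and all 3 windows held the core. Whether these letters bear on the levels was not tested.

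The next comparison asked at which times of day the groups differed. The same 17521 genes were tested at each time. At ZT0 5 of 7 enzymes passed (39.5% of all genes). H6pd had 120 to 287 CPM (median 200) in 7 nephritic and 114 to 143 CPM (median 124) in 7 young mice, and was higher by 0.65 ± 0.13 (log2, SE; edgeR adjusted p = 0.00014). Me1 had 89.5 to 219 CPM (median 159) in nephritic and 224 to 267 CPM (median 241) in young mice and fell by 0.65 ± 0.14 (edgeR adjusted p = 0.00018). The ranges of Me1 stood apart here, as did those of 6.99% of genes. G6pdx (0.26 ± 0.08, adjusted p = 0.0099) and Pgd (0.30 ± 0.11, adjusted p = 0.022) were higher and Idh1 (-0.33 ± 0.09, adjusted p = 0.0047) lower by the same test. Pgd did not pass in set 2 alone (0.18, adjusted p = 0.23) or without the libraries with adrenal markers (0.25, adjusted p = 0.077). In set 2 alone Tkt (-0.42, adjusted p = 0.010) and Taldo1 (-0.29, adjusted p = 0.014) passed too.

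At ZT4, where all mice are of set 2, Tkt, Taldo1 and Idh1 were lower in nephritic mice, and these 3 of 7 passed (30.3% of genes). Tkt had 226, 234, 270 and 294 CPM in the 4 young and 145, 154, 163 and 164 CPM in the 4 nephritic mice, a difference of -0.79 ± 0.14 (edgeR adjusted p = 4.3e-05). Taldo1 had 252, 279, 313 and 327 CPM in young and 196, 198, 213 and 218 CPM in nephritic mice, a difference of -0.58 ± 0.12 (edgeR adjusted p = 0.00023). Idh1 had 720, 764, 825 and 885 CPM in young and 519, 533, 535 and 602 CPM in nephritic mice, a difference of -0.62 ± 0.12 (edgeR adjusted p = 0.00021). The 2 groups did not overlap in any of these, nor in G6pdx, H6pd or Me1, which makes 6 of 7 beside 47.9% of genes.

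At ZT8 none of the 7 passed by edgeR (3.66% of genes did), 1 had an unadjusted p under 0.05 and DESeq2 called none either. The ranges of G6pdx stood apart (17.3% of genes), with 29.5, 30.6, 31.1 and 31.1 CPM in young and 31.2, 32.2, 33.5 and 39.8 CPM in nephritic mice. At ZT12 H6pd, Pgd, Tkt and Me1 passed (4 of 7, against 50% of genes). Me1 had 249.4 to 304 CPM (median 276) in 7 young and 72.0 to 227 CPM (median 166) in 6 nephritic mice, and fell by 0.92 ± 0.14 (edgeR adjusted p = 1.1e-06). H6pd had 122 to 143 CPM (median 138) in young and 159 to 285 CPM (median 184) in nephritic mice and was 0.57 ± 0.14 higher (edgeR adjusted p = 0.00061). Both stood apart (19.1% of genes). Tkt fell by 0.62 ± 0.11 (edgeR adjusted p = 1.0e-05). Pgd was 0.25 ± 0.11 higher at the edge of the threshold (adjusted p = 0.049), and -0.02 in set 2 alone, where Taldo1 passed (-0.38, adjusted p = 0.0021). Without the libraries with adrenal markers G6pdx (0.28, adjusted p = 0.0081) and Idh1 (-0.30, adjusted p = 0.039) passed as well at ZT12.

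At ZT16 Me1 alone passed (1 of 7, 17.7% of genes). Young mice had 247, 248, 287 and 288 CPM and nephritic mice 131, 138 and 176 CPM, apart as in 36.7% of genes, a difference of -0.88 ± 0.20 (edgeR adjusted p = 0.0010). Without the libraries with adrenal markers, which leaves 1 young mouse at ZT16, it was -0.75 and did not pass (adjusted p = 0.19). At ZT20 none of the 7 passed by edgeR (5.48% of genes), although the ranges of H6pd, Pgd, Idh1 and Me1 stood apart (4 of 7, 20.4% of genes). Idh1 had the lowest p there, with 629, 631, 649 and 732 CPM in young and 454, 496 and 581 CPM in nephritic mice, and a difference of -0.41 ± 0.13 (adjusted p = 0.064). It was the 1 enzyme with an unadjusted p under 0.05, and DESeq2 called it (adjusted p = 0.049).

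The third comparison asked which enzymes change over the day within a group. In young mice all 7 passed the test over 6 times (edgeR, 16521 genes), as did 39.8% of all genes. Idh1 had the widest swing, with an amplitude of 0.35 ± 0.04 (log2 CPM, SE of a 24 h cosine, no test) and means of 799 ± 72.4 CPM at ZT4 and 492 ± 40.5 CPM at ZT12 (SD, n = 4 and 7; edgeR adjusted p = 4.3e-07). H6pd, with an amplitude of 0.20 ± 0.03, was highest at ZT8 (171 ± 9.97 CPM) and lowest at ZT20 (122 ± 7.96 CPM; adjusted p = 6.7e-06). Taldo1 (0.16 ± 0.04), Tkt (0.11 ± 0.04) and Pgd (0.11 ± 0.03) were highest at ZT4. G6pdx and Me1, both with an amplitude of 0.12 ± 0.04, were highest at ZT12 and lowest at ZT8. These are the highest of the 6 means, and peak times were not tested.

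Without the 8 young libraries with adrenal markers, 4 of 7 passed, G6pdx, H6pd, Taldo1 and Idh1, beside 3921 of 16079 genes. Me1 (adjusted p = 0.055), Pgd (0.098) and Tkt (0.11) did not pass in those 22 mice, and 3 of the 7 young ZT12 mice and 3 of the 4 young ZT16 mice are among those left out. Tkt was near the threshold in all 30 mice (adjusted p = 0.046) and was lost when any 1 of 18 of the 30 mice was left out, and with limma, no count filter, a cosine or no set covariate (adjusted p = 0.39). Pgd was lost in set 2 alone (0.057) and with no set covariate (0.077). H6pd, Idh1, G6pdx and Taldo1 passed in each of the other 8 fits and without any 1 mouse.

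In nephritic mice none of the 7 passed over the day by edgeR, where 21.6% of 16872 genes did, and 2 had an unadjusted p under 0.05. These were Idh1 (adjusted p = 0.0502), highest at ZT8 (606 ± 43.1 CPM) and lowest at ZT12 (425 ± 79.0 CPM), and Taldo1 (adjusted p = 0.055). Both passed with RLE size factors, DESeq2 and limma, and Idh1 also without the 1 nephritic library with adrenal markers (adjusted p = 0.026). The amplitude of Idh1 was 0.19 ± 0.06 in nephritic mice and that of Taldo1 0.01 ± 0.04. That of H6pd, 0.11 ± 0.10, lay within its own SE, but not within the young SE, of the young value. Those of G6pdx (0.11 ± 0.06), Pgd (0.10 ± 0.07), Tkt (0.14 ± 0.07) and Me1 (0.14 ± 0.09) were within 1 SE of the young values, by the SE of either group. The fitted cosines did not all peak alike: that of Me1 peaked at 15.6 h in young and 3.12 h in nephritic mice, Pgd at 3.65 and 19.7 h, Tkt at 5.48 and 21.8 h and G6pdx at 17.965 and 18.8 h, with no test. The difference in time course itself passed for none of the 7 by edgeR (6.27% of 17521 genes), with an unadjusted p under 0.05 for 5. Adjusted p was lowest for Tkt (0.083), Idh1 (0.091) and Me1 (0.091). DESeq2 called these 3 (2186 of 17521 genes), and set 2 alone called Taldo1, Idh1 and Me1 (1715 of 17339 genes). A p over the threshold does not show that the time courses were alike. In simulated data with 200 changed genes the test over the day found 59.5% of changes of amplitude 0.25 (log2) in young mice and 13% in nephritic mice. Far more genes passed in the data, so the adjustment cuts elsewhere and these rates need not hold for the 7 enzymes. A call in young mice alone does not show that a daily change was lost.

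The fourth comparison asked where the enzymes stood in remission, over the 35 mice of ZT0 and ZT12 (16841 genes). Idh1 was lower in remission than in nephritis or youth. It had 349, 409, 433 and 485 CPM at ZT0 and 257, 304, 348 and 368 CPM at ZT12 in remission mice. At these times young mice had 644 to 884 and 450 to 564 CPM, and nephritic mice 469 to 681 and 289 to 499 CPM. Idh1 differed by -0.43 ± 0.10 from nephritic mice (edgeR adjusted p = 0.00090) and by -0.69 ± 0.10 from young mice (adjusted p = 1.5e-06), and the lower level against young mice passed in all 10 other fits.

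Against nephritic mice, 3 of 7 passed, where 37.5% of genes did. Beside Idh1 these were Taldo1, higher by 0.26 ± 0.09 (edgeR adjusted p = 0.019), and Pgd, lower (-0.27 ± 0.11, adjusted p = 0.047). Taldo1 had 241, 252, 258 and 270 CPM at ZT0 and 242, 261, 286 and 298 CPM at ZT12, all above the median of the 13 nephritic mice. Pgd had 94.2, 98.6, 107 and 109 CPM at ZT0 and 106, 107, 117 and 123 CPM at ZT12, all below the nephritic median, and lost its call when any 1 of 6 remission mice was left out, s9 (adjusted p = 0.058) among them, and without the libraries with adrenal markers (-0.21, adjusted p = 0.14). H6pd, with 135, 143, 153 and 159 CPM at ZT0 and 149, 150, 180 and 181 CPM at ZT12, differed by -0.29 ± 0.12 (adjusted p = 0.065), and Me1, with 187, 191, 205 and 220 CPM at ZT0 and 176, 184, 195 and 218 CPM at ZT12, by 0.24 ± 0.14 (adjusted p = 0.17). G6pdx (-0.14 ± 0.08, adjusted p = 0.18) and Tkt (0.03 ± 0.12, adjusted p = 0.87) did not pass. The ranges overlapped for all 7, and stood apart in 4% of genes.

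Against young mice, 4 of 7 passed, where 41.6% of genes did: H6pd was higher (0.33 ± 0.12, edgeR adjusted p = 0.030), and Tkt (-0.37 ± 0.12, adjusted p = 0.010), Me1 (-0.53 ± 0.15, adjusted p = 0.0045) and Idh1 lower. G6pdx (0.08 ± 0.08), Pgd (0.02 ± 0.11) and Taldo1 (0.16 ± 0.09) did not pass. H6pd was lost without mouse s12 or s14 (adjusted p = 0.059 for each) and with no set covariate (0.066). Without the libraries with adrenal markers Tkt was lost (-0.25, adjusted p = 0.11) and Taldo1 passed (0.27, adjusted p = 0.025). The ranges of Me1 stood apart from young mice (8.02% of genes). The contrast of the 5 pathway enzymes with Idh1 and Me1 was -1.09 ± 0.26 in 8 remission mice, beside -1.04 ± 0.45 in 13 nephritic and -1.68 ± 0.16 in 14 young mice of the same times. The contrast of the oxidative with the non-oxidative enzymes was -1.32 ± 0.10 in remission, -0.87 ± 0.42 in nephritic and -1.47 ± 0.19 in young mice. In the first contrast 7 of 8 remission mice lay above all 14 young mice, and in the second none lay above the nephritic median.

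The remission mice were taken to share a sequencing run with the 4 repeat libraries, and a fit that used these to estimate the run gave other calls. Against nephritic mice only H6pd passed (-0.47, edgeR adjusted p = 0.039), with Idh1 at -0.34 (adjusted p = 0.051), and against young mice only Idh1 did (-0.57, adjusted p = 0.0017). The repeat of nephritic mouse RX11RU correlated with another mouse's original (r = 0.997) better than with its own (0.985). Without that repeat H6pd (-0.52, adjusted p = 0.042), Pgd (-0.44, adjusted p = 0.041) and Me1 (0.62, adjusted p = 0.039) passed against nephritic mice and Idh1 did not (-0.21, adjusted p = 0.29). Between ZT0 and ZT12, Idh1 was higher at ZT0 by 0.55 ± 0.11 in young mice (edgeR adjusted p = 0.0025, 1 of 7, 3.66% of genes) and by 0.45 ± 0.12 in nephritic mice (adjusted p = 0.032, 1 of 7, 3.52% of genes). In remission mice Idh1 differed by 0.40 ± 0.15 and did not pass (adjusted p = 0.64; 0 of 7 by edgeR and by DESeq2, 1 with an unadjusted p under 0.05, 0.0475% of genes), nor without s9 (adjusted p = 0.30). Without the libraries with adrenal markers the young call was not kept (0.51, adjusted p = 0.072), and Tkt of nephritic mice passed (0.43, adjusted p = 0.043).

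The genes around these enzymes were counted by lists in the comparison of nephritic with young mice, in which 28.1% of all genes rose and 33.9% fell. Of 10 tested genes that neighbour the pentose phosphate pathway, 4 fell and 1 rose: Shpk, the sedoheptulokinase (-0.42), Rbks, the ribokinase (-0.32), Prps2 (-0.34), which makes phosphoribosyl pyrophosphate, and the epimerase Rpe (-0.25) were lower, and hexokinase Hk2 (0.77) was higher. Tktl1 and Tktl2, close relatives of Tkt, had at most 6 counts in any library. Of 13 genes listed as other sources of NADPH, 8 fell and 4 rose. The list goes by pathway, and Mthfd1l in it makes no NADPH itself. The mitochondrial folate enzymes Mthfd2 (1.24), Mthfd1l (0.94) and Aldh1l2 (0.78) were higher, while the cytosolic Mthfd1 (-0.60) and Aldh1l1 (-0.69), the mitochondrial Idh2 (-0.57) and the transhydrogenase Nnt (-0.74) were lower. Mthfd2 had 2.70 to 5.14 CPM in young (median 3.94) and 4.59 to 22.03 CPM in nephritic mice (median 8.83), overlapping at the edge. The median of the list was -0.35, beside -0.03 over all genes.

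Among the users of NADPH, 5 of 7 tested subunits and partners of NADPH oxidases rose and 2 fell. Ncf4 had 0.929 to 2.17 CPM in young (median 1.42) and 3.78 to 46.0 CPM in nephritic mice (median 11.6), with no overlap, and a change of 3.07 (edgeR adjusted p = 4.5e-23). Cybb (2.24), also of the phagocyte oxidase, was higher, and the tubular oxidase Nox4 (-0.93) was lower. Of 9 tested reductases 6 fell and 1 rose, among the former cytochrome P450 reductase Por (-0.79), Akr1a1 (-0.44) and Txnrd2 (-0.35). Of 8 lipid and steroid synthesis genes 5 fell and none rose, with fatty acid synthase Fasn at -0.99, Acaca at -0.75 and Dhcr7 at -0.51. These were listed by pathway, and Acaca itself uses no NADPH. Of 11 lipogenic genes 9 fell, Srebf1 (-0.50) and Acss2 (-0.75) among them. Of 11 targets of NRF2, 3 rose and 6 fell: heme oxygenase Hmox1 (1.29) and the cystine carrier Slc7a11 (1.46) were higher and Gstm1 (-0.34) lower. Of the 4 injury markers all rose, of the 14 leukocyte markers 13 rose and of the 10 proximal tubule markers all fell. Of 7 markers of other nephron segments 2 rose and 1 fell, of 8 adrenal markers 4 fell, of 4 clock genes 2 fell, and none of 7 adipocyte markers passed. The part of these cell types in the results was not tested.

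The last comparison asked how the enzymes followed tissue injury and cell markers among the 27 nephritic mice. Mice of all times and both sets were pooled and permuted together, with no adjustment for time of day. The part of time of day in these relations was not tested. Lcn2, a marker of injured tubules, spanned 4.69 to 782 CPM in them. H6pd rose with it (Pearson r = 0.89, Spearman rho = 0.92, permutation p = 1e-05 for both, the smallest that 100000 permutations can give, adjusted p = 7e-05 and 0.00011 over 21 relations), as did G6pdx (r = 0.70, rho = 0.70) and Pgd (r = 0.71, rho = 0.70). Tkt (r = -0.69, rho = -0.71) and Me1 (r = -0.69, rho = -0.68) went the other way (permutation p adjusted over 21 relations from 7e-05 to 0.00037 for these 4 by both measures). Taldo1 (r = -0.12, permutation p adjusted 0.60) and Idh1 (r = -0.23, permutation p adjusted 0.33) did not pass. In set 2 alone (22 mice) the 5 relations gave r of 0.85, 0.61, 0.61, -0.69 and -0.59, and without the 2 mice farthest from the median of Lcn2 0.88, 0.73, 0.72, -0.68 and -0.69.

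With the mean of 10 proximal tubule markers, Me1 was the closest (r = 0.94, rho = 0.87, permutation p = 1e-05 for both, adjusted 7e-05 and 0.00011), followed by G6pdx (r = -0.83, rho = -0.73), Pgd (r = -0.80, rho = -0.72) and H6pd (r = -0.75, rho = -0.71). Tkt (r = 0.61, rho = 0.53) and Idh1 (r = 0.45, rho = 0.42) passed too, with permutation p adjusted to 0.0013 and 0.031 for r. Idh1 did not pass by r in set 2 alone (r = 0.39, permutation p adjusted 0.11) but did by rho (0.54, permutation p adjusted 0.019). In 5 mice the marker mean was under 8 log2 CPM. Among the other 22 r was 0.78 for Me1, -0.56 for G6pdx, -0.57 for Pgd, -0.50 for H6pd, 0.37 for Tkt and 0.42 for Idh1, with no test. Leukocyte markers gave a relation that passed by both measures for Idh1 (r = -0.68, rho = -0.64, permutation p adjusted 0.00057 and 0.00067) and Me1 (r = -0.49, rho = -0.44, permutation p adjusted 0.021 and 0.038), and none for H6pd (r = 0.06) or Pgd (r = 0.17). In set 2 alone these were -0.47 for Idh1 and -0.36 for Me1, and without the 2 farthest mice -0.59 and -0.21, so the Pearson r of Me1 rests on those mice. Spearman's rho in set 2 alone was -0.566 for Idh1 and -0.475 for Me1 (permutation p adjusted 0.014 and 0.042), while Pearson's r did not pass there (0.053 and 0.15). With leukocyte markers G6pdx (r = 0.44, permutation p adjusted 0.031) and Tkt (r = -0.41, permutation p adjusted 0.048) passed by Pearson's r but not by rho. Neither passed by r in set 2 alone (permutation p adjusted 0.06 and 0.24).

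**Figure D4:**
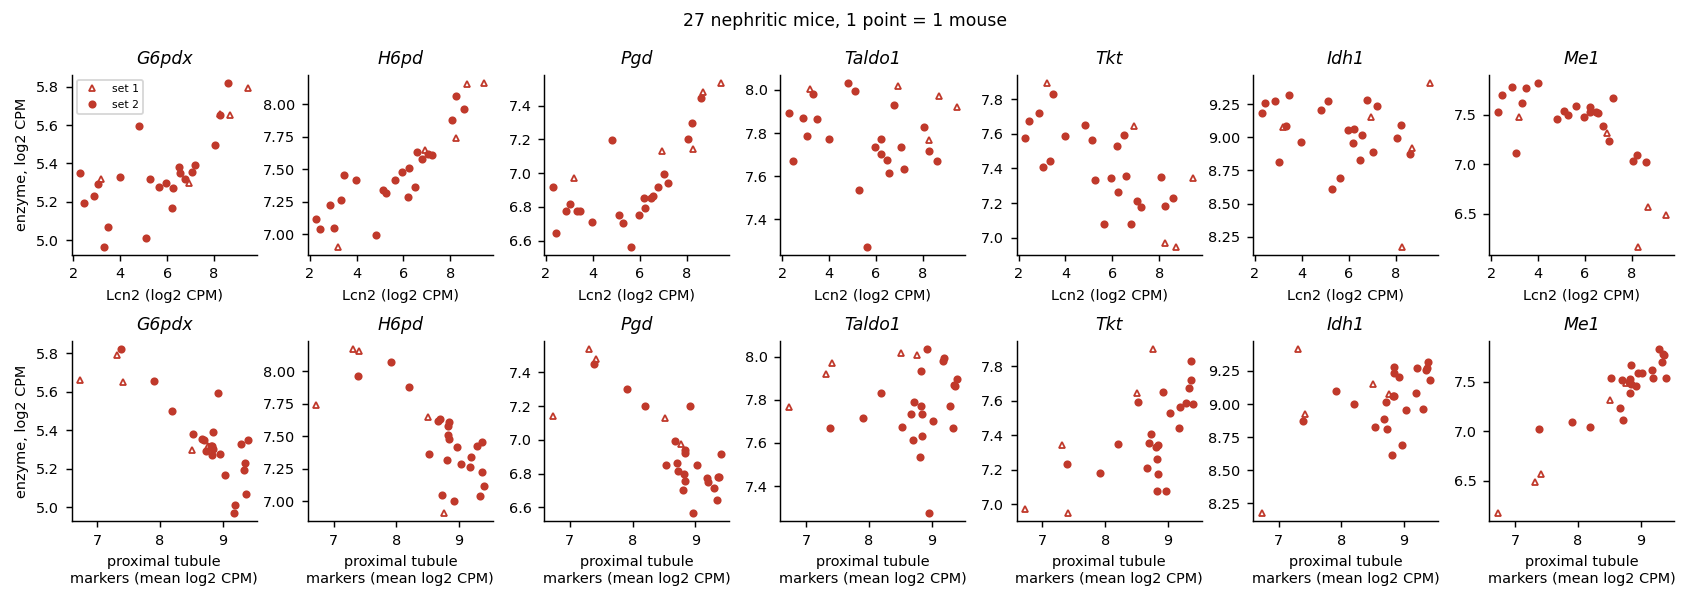
Log2 CPM of each enzyme (vertical axis) against log2 CPM of Lcn2 (upper row) and the mean log2 CPM of 10 proximal tubule markers (lower row) in 27 nephritic mice, each point 1 mouse, open triangles set 1 and filled circles set 2. H6pd climbs with Lcn2 (r = 0.89), Me1 climbs with the proximal tubule markers (r = 0.94), and Taldo1 follows neither (r = -0.12 and -0.01).

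The genes most like each enzyme over the 57 young and nephritic libraries were found by Pearson's r of log2 CPM after removal of the set difference. All values come from the same libraries, so shared depth and composition add to them, and no test was made. Me1 was near to the desaturase Fads2 (r = 0.94) and the cholesterol synthesis gene Hmgcs1 (0.93), and Idh1 to Nectin3 (0.89) and D630023F18Rik (0.89). G6pdx was nearest to Ppp2r5b (0.82), asparagine synthetase Asns (0.82) and the cationic amino acid carrier Slc7a1 (0.80). H6pd was nearest to Slc39a1 (0.88), the keratin Krt8 (0.88) and Pea15a (0.88), and Pgd to Lmna (0.87), Eif6 (0.86) and Ptges (0.86). Taldo1 was nearest to 0610012G03Rik (0.92), Mrpl43 (0.92) and Ufc1 (0.91), and Tkt to Cyb5b (0.85), Calb1 (0.85) and the malate dehydrogenase Mdh2 (0.84).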

How the data were processed

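Whole perfused kidney RNA of 65 mice was sequenced by the authors (poly-A selected, paired-end, 150 bases), and the deposited values are raw read counts for each gene symbol. The paper names the Burrows-Wheeler algorithm and the labels' processing notes HISAT and mm10, and versions and counting strand are not given in the sources used here. Every file was 1 library. Counts were fitted in R 4.3.3 with edgeR 4.0.16 (quasi-likelihood test, TMM scaling, genes with at least 100 counts in a fit, Benjamini-Hochberg adjustment), with the study's RNASeq set as a covariate. CPM and log2 CPM (prior count 2) used the same scaling. Gene lengths and positions came from GENCODE release M21 and promoters from RefSeq. Permutation tests used 100000 draws and were two-sided. The members and lists were chosen with earlier results of these data known. Genes named beside the 7 were the 3 with the smallest p past the threshold in each list, others of a list chosen after their values were seen, and the 3 most alike to each enzyme. A few genes that these rules name are not reported here. Mice are separate animals, with no pairing. The fits were tested on simulated data. Alternatives used DESeq2 1.42.0, limma 3.58.1, RLE size factors, no count filter, a cosinor, set 2 alone, no set covariate, the repeat libraries, the run as a covariate and leaving out each mouse. Fits without the libraries with adrenal markers, the contrast without set 1 and that of the 2 branches were chosen after seeing the data.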

Additional observations from a re-analysis of the deposited data

Results flagged for a closer look

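Of 84 groups of 4 to 7 mice of 1 enzyme, group and time, 1 held a mouse far from the others, where chance would mark about 1 in 20. Nephritic mouse RX10RU had 121 CPM of Pgd at ZT8, while the other 3 nephritic mice of that time had 108 to 110 CPM, and the gap was 0.846 of the whole range.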

How the results depend on the processing

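The directions of all 7 enzymes between nephritic and young mice were the same under all 8 other fits and without any 1 of 57 mice, and the sole call lost was Pgd in set 2 alone (0.10, adjusted p = 0.096). The number of enzymes past the threshold over the day in nephritic mice was 0 with edgeR and 2 with RLE size factors, DESeq2 or limma, 1 without the libraries with adrenal markers, and 0 to 2 when 1 mouse was left out. In young mice it was 7, and 4 without the libraries with adrenal markers. The difference in time course was called for 3 by DESeq2 and for 3 in set 2 alone. At ZT16 the number was 0 without libraries with adrenal markers and 2 in set 2 alone, and at ZT20 1 with DESeq2 and 1 in set 2 alone. In set 2 alone G6pdx (-0.034) and Pgd (-0.020) turned at ZT12. Between ZT0 and ZT12 the number was 0 in young and 2 in nephritic mice without the libraries with adrenal markers, and 2 in nephritic mice with DESeq2. With the run as a covariate, the number for remission was 1 against nephritic mice with 4 repeats, and 1 against young mice with 4 or 3 repeats. Small differences that did not pass changed sign. Tkt of remission against nephritic mice was -0.013 with the repeats in place of originals and -0.039 to 0.065 when 1 mouse was left out. Pgd of remission against young mice was -0.0043 with no filter, -0.011 with no set covariate, -0.0048 with the repeats in place of originals, -0.068 and -0.14 with the run covariate of 4 and 3 repeats, and -0.021 to 0.048 when 1 mouse was left out, and G6pdx was -0.026 with 3 repeats. The contrast of the pathway with Idh1 and Me1 between remission and nephritic mice was -0.05, and 0.011 without H6pd, 0.19 from summed counts and 0.16 without set 1. Between remission and young mice the contrast of the oxidative with the non-oxidative enzymes was 0.15. In set 2 alone r was -0.051 for H6pd with leukocyte markers and 0.25 for Taldo1 with proximal tubule markers. The cause of these changes was not tested. No paired analysis was possible because the mice are separate animals without shared numbers across groups. Groups of 3 to 7 mice at a time, and the smaller depth of remission libraries, limit what could be detected.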

Other observations

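Mice of 1 group and time also differed from each other in a patterned way. Pairs of enzymes were compared by the residuals of log2 CPM after removal of group, time and set, with permutations within a time point, in 42 relations chosen after the fits were seen. In 30 young mice Pgd went with the non-oxidative enzymes Taldo1 (r = 0.85, rho = 0.87, permutation p = 1e-05 for both, adjusted 0.00021) and Tkt (r = 0.79, rho = 0.74, permutation p adjusted 0.00028 and 0.0046). In 27 nephritic mice Pgd went with the oxidative enzymes G6pdx (r = 0.87, rho = 0.87, permutation p = 1e-05 for both, adjusted 0.00021) and H6pd (r = 0.79, rho = 0.76, permutation p adjusted 0.0035 and 0.0054). With the non-oxidative enzymes it passed for neither and the signs differed. Tkt gave r = -0.42 and rho = -0.48 (permutation p adjusted 0.19 and 0.087), and Taldo1 r = 0.415 and rho = 0.273 (permutation p adjusted 0.248 and 0.496). In young mice Pgd with G6pdx gave r = 0.39 and rho = 0.44 (permutation p adjusted 0.14 and 0.085) and with H6pd r = 0.13 and rho = 0.15 (permutation p adjusted 0.76 and 0.64). In set 2 alone the 4 values that passed were 0.79 and 0.86 in young mice and 0.88 and 0.77 in nephritic mice, and without the 2 mice farthest from the median of the first named enzyme of a pair 0.81, 0.73, 0.82 and 0.85. The difference between the groups in these relations was not tested. In nephritic mice Me1 went against G6pdx (r = -0.73), H6pd (r = -0.69) and Pgd (r = -0.74) and with Tkt (r = 0.60), with permutation p adjusted to at most 0.016 for these 4. Of 21 pairs 4 passed in young and 8 in nephritic mice by Pearson's r.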
